A study of Mus musculus with 6 samples.

Results

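The genes of 2 families were read in RNA sequencing of mouse 4T1 tumor cells, the integrins, which are the receptors that hold cells to the matrix, and the laminins, which are proteins of the basement membrane. The 35 genes were taken by name from a list of integrin and laminin symbols, 25 integrins and 10 laminins, out of 24129 gene names in the table. 4T1 is a mammary carcinoma line of BALB/c mice that serves as a model of triple negative breast cancer. Both populations descend from 4T1GFP cells, 4T1 cells tagged with GFP, that were injected into BALB/c mice, and both were sorted by their GFP from a culture of stromal cells (GFP negative, CD140a positive) of the resected primary tumor, which the GFP positive cells had overgrown. T1 cells (4T1A in the labels) had low GFP, grew adherent with an epithelial morphology and were the aggressive population. T2 cells (4T1NA) had high GFP, grew round and loosely adherent, divided slowly and were less aggressive. Each population had 3 replicates. The labels do not say whether the replicates were separate cultures, so the p-values below measure the spread between these samples. Both populations carried no further treatment and were grown in the same medium, but T2 cells were passaged in suspension, without trypsin.

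An integrin is a pair of 1 alpha and 1 beta chain that spans the membrane and links the matrix outside to actin or keratin filaments inside. The alpha chain sets much of the choice of ligand, which may be laminin, collagen or proteins with an RGD motif such as fibronectin. Each laminin is a trimer of 1 alpha, 1 beta and 1 gamma chain. In the mammary gland, epithelial cells rest on a laminin sheet, and the hemidesmosome, built on the integrin of Itga6 and Itgb4, ties keratin filaments to it.

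The libraries held 18133227 to 20839686 reads on genes, and 1 read was worth 0.928 to 1.06 normalized counts, which are reads divided by 1 size factor per sample. Replicates of a population differed by more than sampling noise, with 7.96 to 25 as the chi-square over its degrees of freedom. Of the keratin genes of simple epithelium, Krt8 was at 22067 ± 1097 in T1 and 19195 ± 1606 in T2 cells and Krt18 at 23275 ± 2627 and 21658 ± 1762 (SD, n = 3 each), whereas Krt19 was at 3177 ± 539.9 and 2.91 ± 2.54. Epcam, the epithelial cell adhesion molecule, was at 3141 ± 314 and 34.7 ± 3.49. Of 6 epithelial markers 4 (Epcam, Cdh1, Krt14 and Krt19) were higher in T1 cells past both filters below, and the sum of the 6 was 67096 to 73702 in T1 and 37484 to 43412 in T2 cells. The library kit named in the labels does not keep the strand, so reads of overlapping genes cannot be told apart, and the annotated spans of Itga1, Itga6, Itga7, Itga8, Itgae, Itgav, Itgb4, Lama3, Lamb3 and Lamc1 overlap a gene on the other strand. In such bulk RNA, fewer cells of a type and less RNA per cell cannot be told apart.

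Of the 35 genes, 24 reached a mean of 10 normalized counts over the 6 samples and were compared, and 4 of these 24 did so with a mean under 10 in one of the populations. At an adjusted p-value under 0.01, 6 were higher and 14 lower in T1 than in T2 cells (limma on log2(normalized count + 1), Benjamini-Hochberg over all genes tested). These 20 genes were 83.3% of the 24, where 49.5% of the 11514 genes tested passed the same threshold, 25.1% higher and 24.4% lower in T1. When the absolute log2 fold change also had to exceed 2, 3 were higher (Itgb6, Lama3 and Lamb3) and 4 lower (Itga8, Itga1, Itga10 and Itgb7) in T1 cells. The 7 genes were 29.2% of the 24, against 8.37% of all genes tested, 4.17% higher and 4.2% lower. In 20 of the 24 genes the T1 and T2 values did not overlap, against 68.1% of all genes. Because the 35 genes were chosen with earlier results of these data known, these shares are descriptive and not a test of the set. The median log2 fold change was -0.61 over the 24 genes and -0.0055 over all genes tested. Of 11 alpha chains compared, 8 were lower in T1 cells and 0 higher at an adjusted p under 0.01, and of 7 beta chains 4 were higher and 2 lower (limma).

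**Figure D1:**
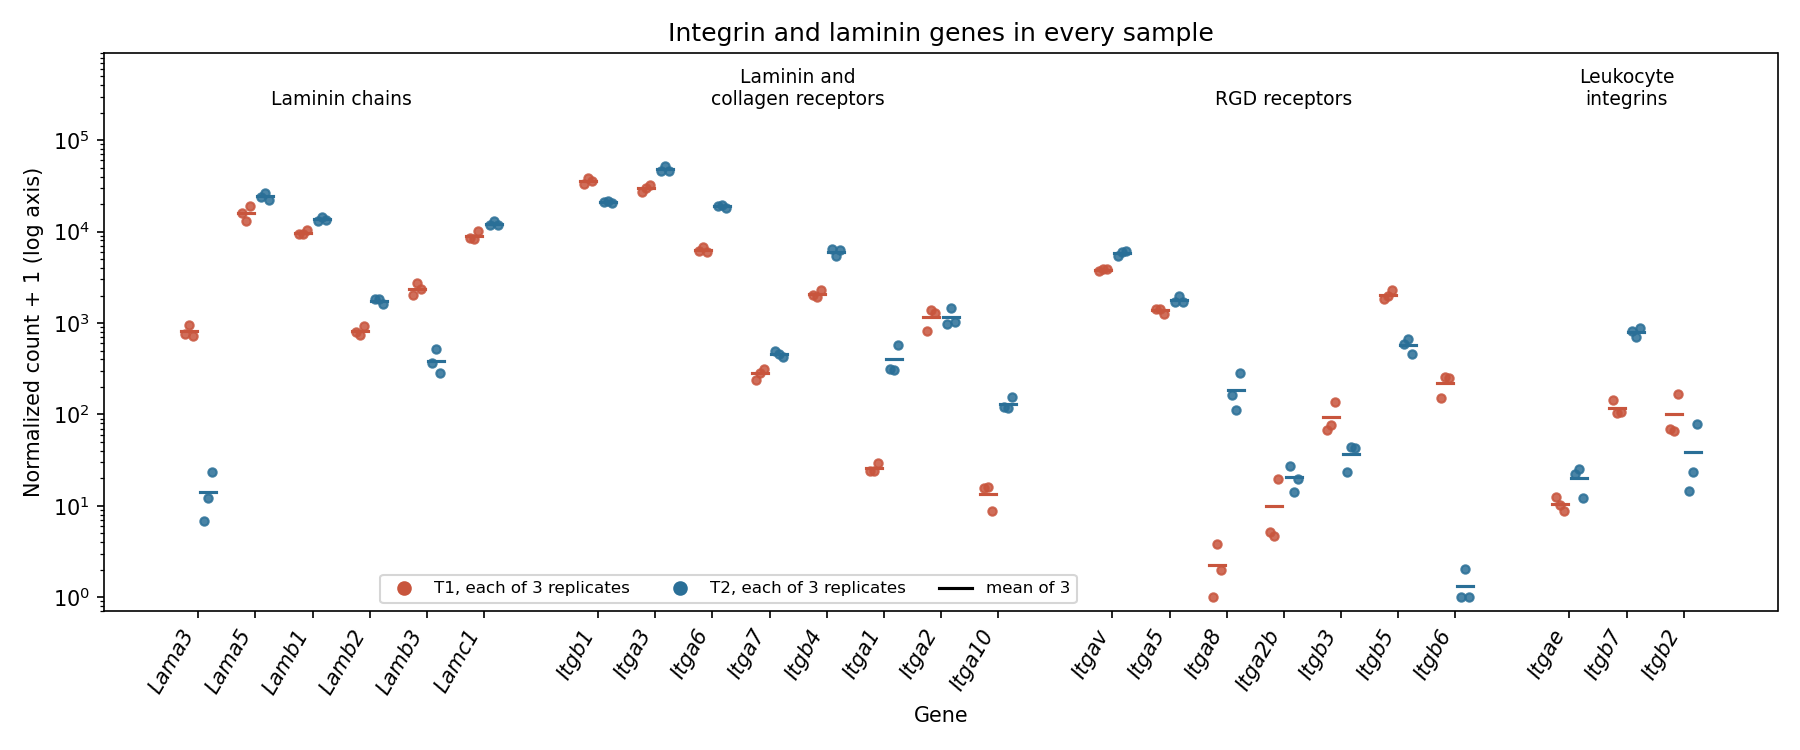
Normalized count + 1 on a log axis of the 24 integrin and laminin genes compared, with each point 1 replicate of T1 (red) or T2 cells (blue) and each bar the mean of 3. The points of Itgb6 in T2 cells and of Itga8 in T1 cells, with at most 1 and 3 reads in a library, lie lowest, and those of Itga2 overlap.

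Laminin chains fell into sets that moved in opposite directions. Lama3 and Lamb3, chains of the laminin that anchors hemidesmosomes, were higher in T1 cells. The chains that build the broad basement membrane laminins, Lama5, Lamb1, Lamb2 and Lamc1, were all lower in T1 cells, by much smaller folds.

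Lama3 had 763, 942 and 723 normalized counts in the T1 replicates and 5.88, 11.3 and 22.3 in the T2 replicates. Its lowest T1 value was far above its highest T2 value, and its reads in the T2 libraries numbered 6, 11 and 24. The log2 fold change was 6.01 (SE 0.36, adjusted p = 3.69e-07, limma). The gene lies on chromosome 18 of mm10. Lamb3 (chr1:193207699-193343878, plus strand) had 1999.8, 2705 and 2372 in T1 and 360.3, 514 and 283 in T2 cells. Every T1 value was again above every T2 value, with a fold of 6.24 (log2 fold change 2.64, SE 0.19, adjusted p = 1.38e-06, limma). The genes on the other strand within its span include Hsd11b1 and G0s2. Of the 6 epithelial markers above, 4 were also higher in T1 cells past both filters, whereas Krt8 and Krt18 were not. The part of these markers in the difference was not tested.

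Lama5, the widespread alpha chain of epithelial basement membranes (chr2:180176373-180225859), had 15793, 13226 and 19155 normalized counts in T1 and 24103, 26474 and 22387 in T2 cells. It was 1.53-fold higher in T2 cells (log2 fold change -0.61, SE 0.12, adjusted p = 0.00158, limma), with no overlap of the groups. Its usual partners showed folds of the same order. Lamb1 was at 9708 ± 647 and 13669 ± 692 (SD, n = 3 each), 1.41-fold higher in T2 cells, and Lamc1 at 8966 ± 980.3 and 12181 ± 653, 1.36-fold higher (adjusted p = 2.63e-04 and 0.00135, limma). Lamb2, the other beta chain of these laminins, had 799.9, 739 and 931 in T1 and 1842, 1835 and 1609 in T2 cells and was 2.14-fold higher in T2 cells (log2 fold change -1.10, SE 0.11, adjusted p = 9.50e-06, limma). The remaining laminin genes of the 35 carried few or no reads. Lamc3 had 8, 6 and 5 reads in the T1 libraries and 1, 0 and 0 in the T2 libraries, a ratio of 19.2 with a 95% counting interval from 3.05 to 797. Lama2 had at most 2 reads in a library, and Lama1 and Lama4 had 0 in all 6.

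**Figure D2:**
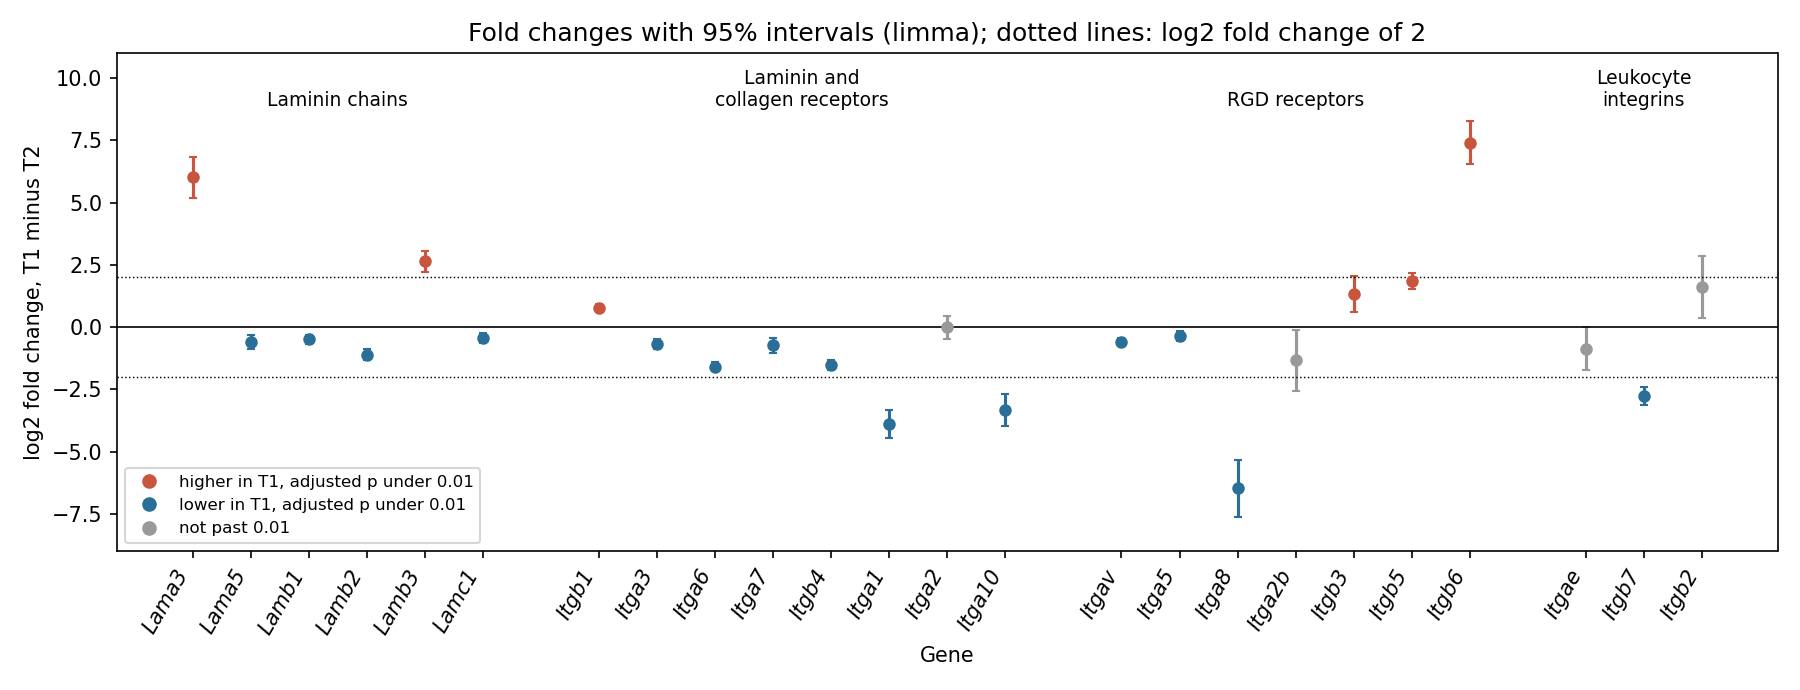
Log2 fold change of T1 minus T2 cells from limma on log2(normalized count + 1) for the 24 genes, with 95% intervals over 3 replicates a group. Red points are higher and blue points lower in T1 cells at an adjusted p under 0.01, grey points did not pass it, and the dotted lines mark a log2 fold change of 2. Lama3 and Lamb3 stand above and the other laminin chains below 0.

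All 4 chains of the laminin receptors other than Itgb1 were higher in T2 cells, while Itgb1 itself was higher in T1 cells. Itga6 (chr2:71745616-71858416, plus strand), which pairs with Itgb4 or Itgb1, had 6148, 6842 and 5939 normalized counts in T1 and 19236, 19424 and 17927 in T2 cells. Itgb4 (chr11:115974709-116008412, plus strand), which pairs with Itga6 alone, had 2002, 1947 and 2307 and 6438, 5407 and 6224. In both genes every T2 value was above every T1 value, by 2.99-fold for Itga6 (log2 fold change -1.58, SE 0.08, adjusted p = 8.35e-08, limma) and 2.89-fold for Itgb4 (log2 fold change -1.53, SE 0.09, adjusted p = 4.14e-07, limma). The chains of the hemidesmosome receptor were thus lower in T1 cells, where Lama3 and Lamb3 of its laminin ligand were higher.

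Itga3, which with Itgb1 forms a receptor for the laminins of Lama3 and Lama5, had the highest level per kb of all alpha chains in both populations. It had 27392, 29743 and 32533 normalized counts in T1 and 45983, 52638 and 45708 in T2 cells, 1.61-fold higher in T2 cells (log2 fold change -0.69, SE 0.09, adjusted p = 9.24e-05, limma). Itga7, best known as the laminin receptor of muscle, was at 279.6 ± 38.9 and 461 ± 35.8 (SD, n = 3 each), and its log2 fold change was -0.73 (adjusted p = 9.28e-04, limma). Itgb1, the chain shared by most alpha chains, went the other way. It had 33089, 39074 and 35930.5 in T1 and 20918, 21657 and 20774 in T2 cells, 1.70-fold higher in T1 cells (log2 fold change 0.77, SE 0.08, adjusted p = 1.65e-05, limma), with no overlap of the groups.

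Of the collagen receptors, Itga1 and Itga10 were higher in T2 cells and Itga2 did not pass the threshold. Itga1 and Itga2 both pair with Itgb1 to bind collagen, and they lie on the minus strand of chromosome 13, 21 kb apart, with 0 annotated protein coding genes between them. Itga1 had 23.3, 23.3 and 28.3 normalized counts in T1 and 316, 303 and 579 in T2 cells. T2 replicate 3 was the highest, and all T2 values were above all T1 values, 14.8-fold (log2 fold change -3.89, SE 0.25, adjusted p = 6.20e-07, limma). Itga2 had 808, 1375 and 1273 in T1 and 980.2, 1444 and 1027 in T2 cells, and the groups overlapped. Its log2 fold change was -0.01 with a 95% interval of -0.46 to 0.44, and its adjusted p was 0.959 (limma). The log2 ratio of Itga1 to Itga2 within a sample was -6.82 ± 0.38 in T1 and -2.95 ± 0.71 in T2 cells (SD, n = 3 each, normalized count + 1 per kb of exon). Every T2 ratio was above every T1 ratio (two-sided exact permutation test, p = 0.1, which 3 against 3 cannot go below). Pelo lies on the same strand within the annotated span of Itga1.

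Itga10, a collagen receptor of cartilage, had 14.8, 14.9 and 7.81 normalized counts in T1 and 119, 117 and 152 in T2 cells. It was 9.94-fold higher in T2 cells (log2 fold change -3.31, SE 0.29, adjusted p = 4.68e-06, limma), from a low level in both. Itga11, the collagen receptor of fibroblasts, had at most 3 reads in a library. Of 14 fibroblast markers, 6 were compared, and 3 were higher and 3 lower in T1 cells at an adjusted p under 0.01. Past both filters 1 was higher and 2 lower (4.17% and 4.2% of all genes tested were higher and lower). The summed normalized counts of the 14 were 10059.6 to 11515 in T1 and 59349 to 69438 in T2 cells, of which S100a4 had 7452 and 62522 on average. Pdgfra, the gene of CD140a, on which the cultured stromal cells had been sorted, had 206, 191 and 201 in T1 and 996, 1004 and 1295 in T2 cells. The collagen genes Col1a1, Col1a2 and Col3a1 were nearly absent from T2 cells. Col1a1 reached 1 read in a T2 library and Col1a2 had 0 there, while Col3a1 had 0 reads in all 6 libraries. The part of these markers in the levels of the collagen receptors was not tested.

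Among the RGD receptors, the chains that differed most were Itgb6, found in T1 cells, and Itga8, found in T2 cells. Itgb6 pairs with Itgav in epithelia to bind and release latent TGF-beta. It had 151, 259 and 248 normalized counts in T1 cells, and its reads in the T2 libraries numbered 0, 1 and 0. The ratio of T1 to T2, from the reads pooled over each group and scaled by the size factors, was 682. Its 95% counting interval ran from 122 to 26969, since it rests on 1 read in T2 cells. The fitted log2 fold change, which depends on the pseudocount, was 7.40 (SE 0.39, adjusted p = 1.47e-07, limma). Itga8, which pairs with Itgb1 and is known from smooth muscle and kidney mesenchyme, had 0, 3 and 1 reads in the T1 libraries and 163, 112 and 285 normalized counts in T2 cells. T2 replicate 3 was again the highest. The ratio of T2 to T1 was 144 (95% counting interval 56 to 530.5) and the fitted log2 fold change -6.47 (SE 0.51, adjusted p = 2.36e-06, limma).

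The promoters of these genes are shown because they had the largest fold change in each direction among the 24 genes. They come from RefSeq, build GRCm38.p6, and run from 250 bases before to 50 after an annotated start. Itgb6 lies at chr2:60598292-60722643 and Itga8 at chr2:12106632-12301922, both on the minus strand. Matches to 3 motifs, searched on both strands, are in capitals. The motifs were TGANTCA (AP-1), CAGGTG (an E-box that ZEB and SNAI factors bind) and GGGCGG (a GC box), and no match overlapped another.
Itgb6 inner start, chr2:60673644-60673943, minus strand: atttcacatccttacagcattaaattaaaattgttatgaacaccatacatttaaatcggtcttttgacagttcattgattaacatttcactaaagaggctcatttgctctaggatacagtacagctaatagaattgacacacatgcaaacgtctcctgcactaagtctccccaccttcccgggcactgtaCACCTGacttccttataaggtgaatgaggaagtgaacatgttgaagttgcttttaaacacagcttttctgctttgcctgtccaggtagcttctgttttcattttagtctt
Itgb6 outer start, chr2:60722554-60722853, minus strand: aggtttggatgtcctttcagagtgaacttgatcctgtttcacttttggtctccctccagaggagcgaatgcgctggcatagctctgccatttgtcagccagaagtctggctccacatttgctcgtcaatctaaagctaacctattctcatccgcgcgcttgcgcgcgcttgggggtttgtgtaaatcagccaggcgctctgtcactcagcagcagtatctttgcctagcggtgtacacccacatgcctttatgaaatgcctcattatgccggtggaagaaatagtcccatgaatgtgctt
Itga8, chr2:12301895-12302194, minus strand: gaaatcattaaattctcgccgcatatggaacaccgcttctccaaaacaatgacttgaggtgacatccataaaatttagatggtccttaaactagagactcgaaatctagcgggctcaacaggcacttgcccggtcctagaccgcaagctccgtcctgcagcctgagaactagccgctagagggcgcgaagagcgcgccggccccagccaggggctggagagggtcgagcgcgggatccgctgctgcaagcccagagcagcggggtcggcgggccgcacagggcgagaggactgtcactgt

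The inner start of Itgb6 had 1 match, a CAGGTG on the minus side of the letters shown (printed as CACCTG) that begins 60 bases before the start site, and 38.3% G or C. Its outer start and the promoter of Itga8 had none of the 3 motifs and 50.3% and 59% G or C. The promoters of Itga1 and Itga10 also held none of them. Of 26 promoters of 23 of the 35 genes, 8 held CAGGTG (30.8%, against 20.2% of all 32851 promoters), 3 held TGANTCA (11.5% against 7.81%) and 12 held GGGCGG (46.2% against 35.7%). These matches describe the letters and say nothing of binding.

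Itgav, the alpha chain that these beta chains share, was abundant in both populations and 1.51-fold higher in T2 cells, with 3703, 3900.4 and 3924 normalized counts in T1 and 5471, 5933 and 6059 in T2 cells (log2 fold change -0.60, SE 0.07, adjusted p = 4.58e-05, limma). Its beta partners with enough reads to compare were higher in T1 cells. Itgb5, which with Itgav binds vitronectin, had 1846, 1962 and 2311 in T1 and 588, 676 and 454 in T2 cells. The groups did not overlap and the fold was 3.59 (log2 fold change 1.84, SE 0.14, adjusted p = 2.27e-06, limma), just under the filter on fold. Itgb3, which pairs with Itgav or with the platelet chain Itga2b, had 66.7, 75.3 and 135 and 22.5, 43 and 41.8, a log2 fold change of 1.33 (SE 0.33, adjusted p = 0.00537, limma). T1 replicate 3 was the highest, and Itgb3 missed the threshold of 0.01 without it (log2 fold change 1.02, adjusted p = 0.0178) or without T2 replicate 1 (1.03, 0.0238) or T2 replicate 3 (1.47, 0.0116). Itgb8, another partner of Itgav, had 0 reads in all 6 libraries.

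Itga5, the chain of the main fibronectin receptor, had 1434, 1414 and 1269 normalized counts in T1 and 1707, 1953 and 1677 in T2 cells. Its groups did not overlap and the log2 fold change was -0.37 (adjusted p = 0.00494, limma). That call was lost when T1 replicate 2 or 3 or T2 replicate 1 or 2 was left out, with adjusted p-values of 0.0112 to 0.0207. Itga2b, the platelet chain, had 4.23, 3.72 and 18.5 in T1 and 26.4, 13.3 and 18.6 in T2 cells, and the groups overlapped because of T1 replicate 3. Its log2 fold change was -1.33 (adjusted p = 0.0573, limma) and over the 6 fits that leave out a sample it ran from -1.99 (adjusted p = 0.00205) without T1 replicate 3 to -0.96 (adjusted p = 0.172) without T1 replicate 2. DESeq2 gave -1.13 (adjusted p = 0.153). None of the 11 endothelial and platelet markers reached the mean of 10 normalized counts, and their sum was 4.88 to 18 in T1 and 11.1 to 22.5 in T2 cells.

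Of 3 integrins known from leukocytes that were compared, 1 passed the threshold of 0.01 (33.3%, against 49.5% of all genes tested). Itgb7, which pairs with Itga4 or Itgae in lymphocytes, had 142, 101 and 106 normalized counts in T1 and 816, 699 and 872 in T2 cells. It was 6.83-fold higher in T2 cells (log2 fold change -2.77, SE 0.16, adjusted p = 2.42e-07, limma). Its partners were scarce. Itga4 had 0 reads in all libraries, and Itgae, whose integrin with Itgb7 binds E-cadherin, had 11.6, 9.30 and 7.81 normalized counts in T1 and 21.5, 24.6 and 11.1 in T2 cells, groups that overlapped (log2 fold change -0.87, adjusted p = 0.0717, limma). Haspin lies on the other strand within the span of Itgae. Cdh1, the gene of E-cadherin, was at 14748 ± 908 and 465 ± 16.2 (SD, n = 3 each), so the beta chain was higher where the ligand of that integrin was lower.

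Itgb2, the beta chain of most leukocyte integrins, had 68.8, 64.2 and 167 normalized counts in T1 and 13.7, 22.5 and 77 in T2 cells. T1 replicate 3 and T2 replicate 3 were the highest of their groups and the groups overlapped. The log2 fold change was 1.61 (adjusted p = 0.0295, limma), and over the 6 fits that leave out a sample it ran from 1.09 (adjusted p = 0.125) without T2 replicate 1 to 2.30 (adjusted p = 0.00261) without T2 replicate 3. Without T1 replicate 3 it was 1.17 (adjusted p = 0.106), and DESeq2 gave 1.40 (adjusted p = 0.133). Its alpha partners Itgal, Itgam and Itgax had at most 3 reads in a library. No library held more than 12.1 normalized counts of any of the defining leukocyte genes Coro1a, Laptm5, Ptprc and Tyrobp. Of 16 leukocyte markers 7 had 0 reads in every library, and their sum was 387 to 470.4 in T1 and 173 to 212 in T2 cells, nearly all from Cd14 and Cd68. Their part in the levels of Itgb2 and Itgb7 was not tested. Itga9, a receptor for tenascin and osteopontin, had 0, 0 and 4 reads in T1 libraries and 0 in T2 libraries. In all, 11 of the 35 genes were not compared, of which 4 (Itga4, Itgb8, Lama1 and Lama4) had 0 reads in every library and the others at most 8 reads. Counting error alone allows a count of 0 to hide up to 3 reads a library, 2.78 to 3.17 normalized counts.

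Levels of the chains were also set side by side within each chain type, as normalized counts per kb of exon. Itgb1 made up 89.9% ± 1.23 of the beta chains in T1 and 79.6% ± 1.39 in T2 cells (SD, n = 3 each). Itgb4 was 3.04% ± 0.352 in T1 and 13.2% ± 1.24 in T2 cells, Itgb7 0.434% ± 0.117 and 4.42% ± 0.516, and Itgb5 5.85% ± 0.652 and 2.48% ± 0.469. The alpha chains were dominated by Itga3 in both populations, with 77.2% ± 1.62 and 71.9% ± 0.926. Itga6 was 10.4% ± 1.06 in T1 and 17.9% ± 0.916 in T2 cells, while Itgav was at 5.29% ± 0.217 and 4.64% ± 0.354. Each of these shares separated the 3 T1 from the 3 T2 samples (two-sided exact permutation test, p = 0.1, the smallest possible).

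In the laminins, Lama5 was 94.7% ± 1.62 of the alpha chains in T1 and 99.9% ± 0.0415 in T2 cells, and Lama3 nearly all of the rest. Lamb3 was 24.2% ± 3.11 of the beta chains in T1 but 3.35% ± 0.835 in T2 cells, where Lamb1 held 79.9% ± 1.46. In T1 cells the level of Lama3 was 75.3 ± 10.9 and that of Lamb3 357 ± 53.4 normalized counts per kb (SD, n = 3 each). None of these shares overlapped between T1 and T2 samples (two-sided exact permutation test, p = 0.1).

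The sum of all alpha chains was 6774 ± 476 normalized counts per kb in T1 and 11716 ± 803 in T2 cells (SD, n = 3 each). The sum of all beta chains was 9822 ± 752 in T1 and 6499.7 ± 42.5 in T2 cells. The ratio of alpha to beta was 0.695, 0.652 and 0.725 in the T1 samples and 1.74, 1.93 and 1.74 in the T2 samples. The ratio was below 1 in T1 and above 1 in T2 cells, and the difference between them was -1.38 on the log2 scale (two-sided exact permutation test, p = 0.1). This comparison of sums was not among those planned. The level of the ratio depends on the exon lengths used, since without length it was 1.06 ± 0.0491 in T1 cells, whereas the difference did not move by more than the spread between replicates. Itga3 made up most of the alpha sum and Itgb1 most of the beta sum.

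**Figure D3:**
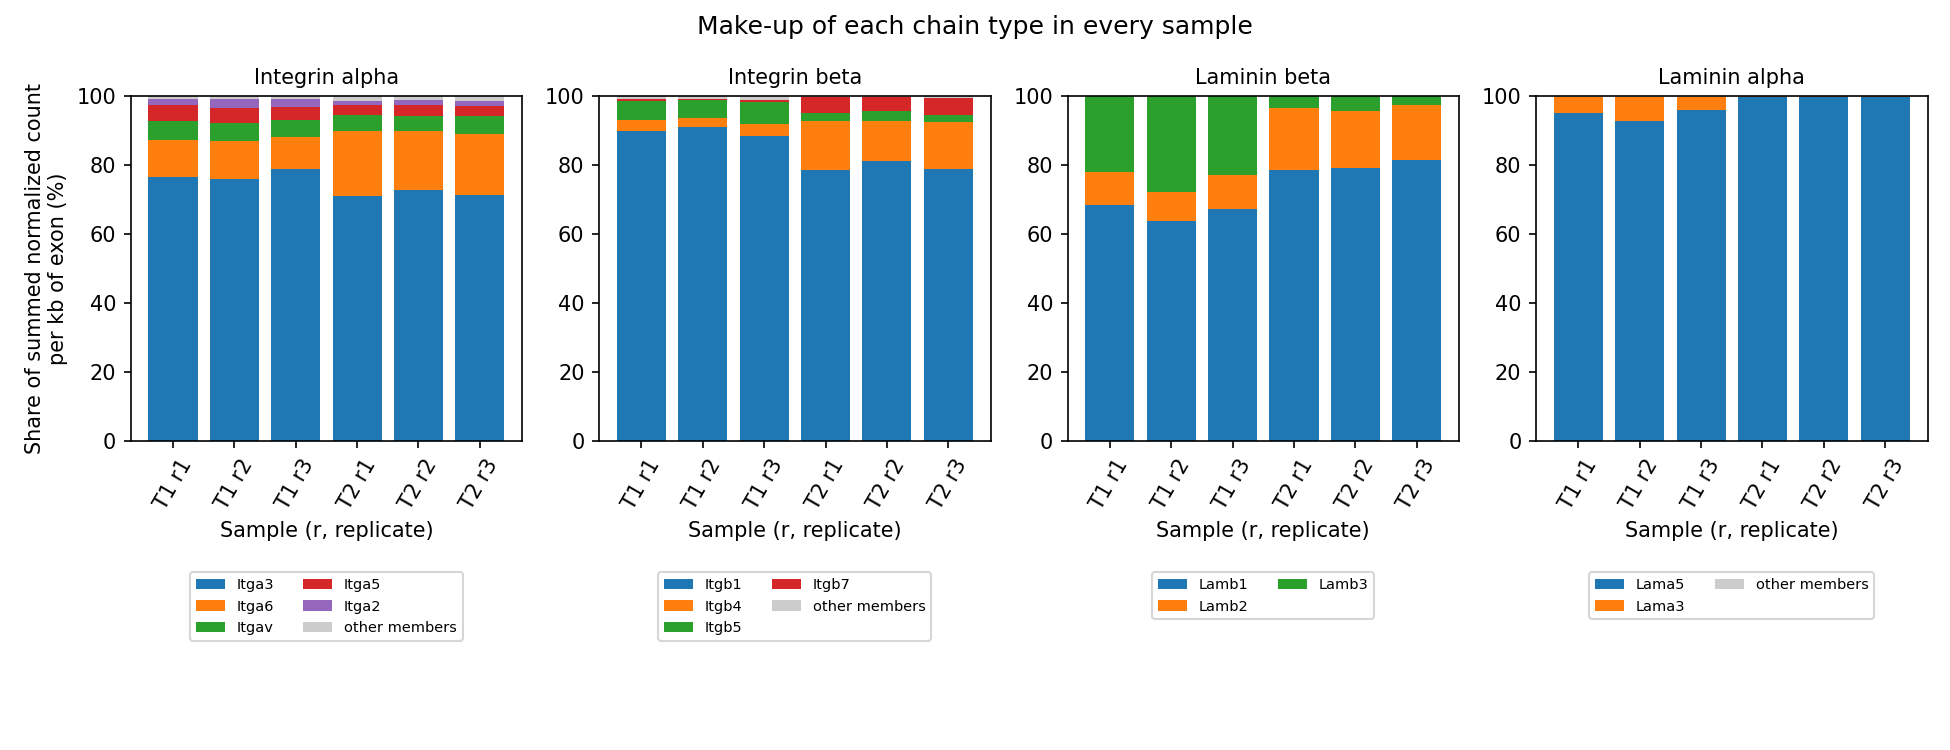
Share in percent of each chain in the summed normalized count per kb of exon, for integrin alpha, integrin beta, laminin beta and laminin alpha chains, with 1 stacked bar for each of the 3 T1 and 3 T2 replicates. Lamb3 fills a larger part of every T1 bar than of every T2 bar, and Itgb4 and Itga6 take a larger part in the T2 bars.

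Ratios between genes within a sample, which depend little on the scaling of the samples, were taken for 11 pairs. The pairs were chosen with the values known. The log2 ratio of Itga6 to Itgb4 was 1.25, 1.45 and 1.0 in T1 and 1.22, 1.48 and 1.16 in T2 samples. The ranges overlapped and the difference of -0.05 was within the spread (exact permutation test, p = 0.9). The ratio of Lamb1 to Lamc1 was -0.14 ± 0.06 and -0.10 ± 0.01 (SD, n = 3 each). The difference of -0.05 was small, but the ranges did not overlap (exact permutation test, p = 0.1). That of Lama5 to Lamc1 was 0.37 ± 0.15 and 0.53 ± 0.07 (p = 0.2 in the same exact permutation test). The ratio of Lama3 to Lama5 was -4.22 ± 0.46 in T1 and -10.84 ± 0.94 in T2 cells, that of Lamb3 to Lamb1 -1.46 ± 0.23 and -4.60 ± 0.38, and that of Itgb4 to Itgb1 -4.89 ± 0.19 and -2.59 ± 0.16. The ratio of Itgb5 to Itgav was 0.68 ± 0.14 in T1 and -1.77 ± 0.33 in T2 cells. All these ratios are per kb of exon, and the order of Itgb5 and Itgav in T1 cells depends on it, since without length Itgb5 had fewer normalized counts than Itgav in every sample. These 4 ratios did not overlap between the populations (two-sided exact permutation test, p = 0.1 for each, the smallest possible).

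**Figure D4:**
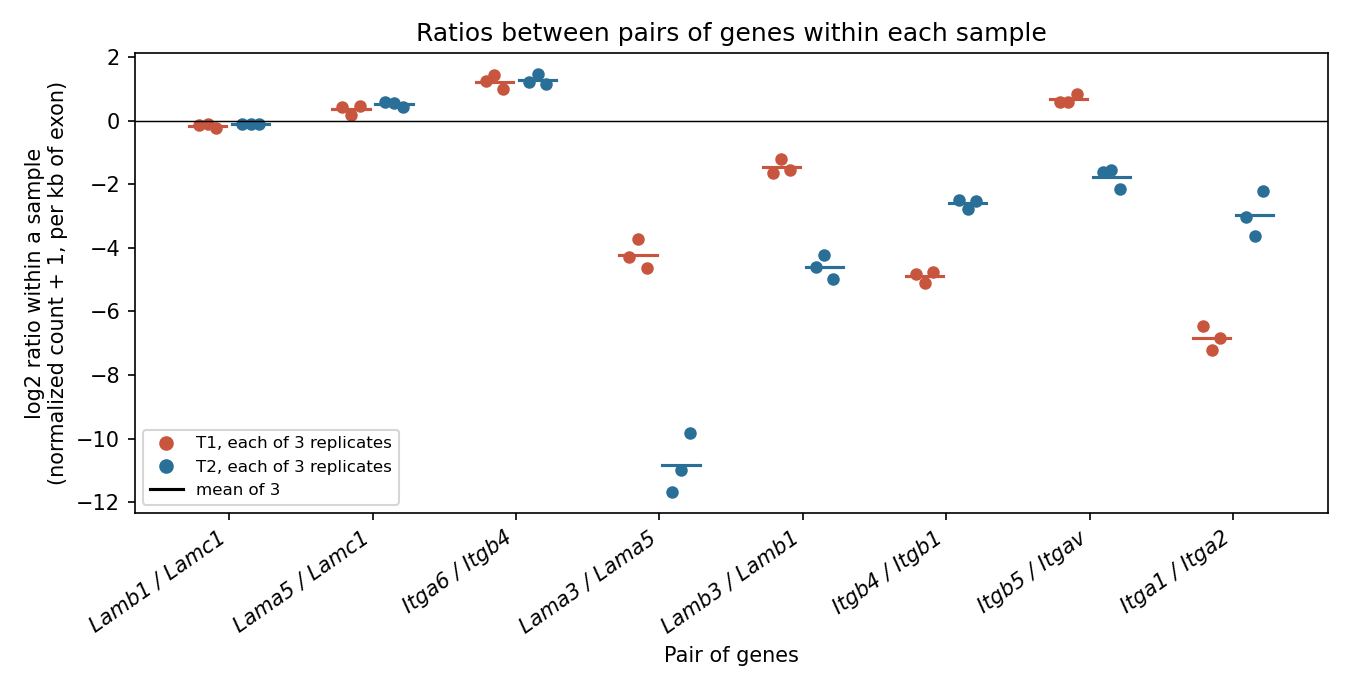
Log2 ratio between pairs of genes within each sample, from normalized counts + 1 per kb of exon, with each point 1 replicate of T1 (red) or T2 cells (blue) and each bar the mean of 3. The first 3 pairs lie close together in both populations, though Lamb1 to Lamc1 does not overlap, and the other 5 lie further apart without overlap.

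The genes that integrins and laminins work with were read from lists of 76 genes, of which 57 had enough reads. Past both filters 8 were higher and 6 lower in T1 cells (4.17% and 4.2% of all genes tested were higher and lower). Their median log2 fold change was -0.03, near that of all genes tested. Among 12 ligands of integrins compared, 5 were higher and 2 lower past both filters. Fn1, fibronectin, had 84207, 83423 and 107954 normalized counts in T1 and 11503, 16732 and 9543 in T2 cells, 7.45-fold higher in T1 cells. Spp1, osteopontin, an RGD ligand, went the other way with 5065, 3585 and 4363 and 73484, 70054 and 75899, 17-fold higher in T2 cells. In both genes all values of one population were above all of the other (adjusted p = 4.51e-07 and 2.37e-09, limma). Postn, periostin, had a mean of 145 ± 18.1 in T1 cells (SD, n = 3) and 0 reads in T2 libraries, at least 49.4-fold higher against a floor of 3 reads a library. Thbs1 (thrombospondin, log2 fold change 4.18), Cdh1 (4.98) and Col1a1 were also higher in T1 cells, and Tnc, tenascin (-2.92), was lower. Col1a1 had 1 read in all T2 libraries, and its ratio was 69.7 (95% counting interval 12.1 to 2792).

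Inside the cell, 26 of 30 focal adhesion genes were compared, and 9 were higher and 7 lower in T1 cells at an adjusted p under 0.01, all but 2 of them within the fold filter. These were 61.5% of the 26, against 49.5% of all genes tested, 25.1% higher and 24.4% lower. Past both filters were Fermt1, kindlin of epithelia, which activates integrins, and Tns4, a tensin that lacks the actin binding part of its family. Fermt1 had 1956, 2257 and 2070.1 normalized counts in T1 and 161, 239 and 78.9 in T2 cells, 14.4-fold higher in T1 cells (adjusted p = 2.60e-06, limma). Tns4 had 793, 556 and 553 and 6713, 8401 and 7845, 12.2-fold higher in T2 cells (adjusted p = 1.90e-08, limma). Neither gene overlapped between the groups. Fermt2, the widespread kindlin, had a log2 fold change of 0.28 (adjusted p = 0.0257), and Tln1, talin, of 0.40 (adjusted p = 0.0144, limma), and these did not pass 0.01.

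Among hemidesmosome partners, Col17a1, the collagen that spans the membrane there, had 4.23, 11.2 and 4.88 normalized counts in T1 and 139, 95.2 and 124 in T2 cells, so it was higher in T2 cells like Itga6 and Itgb4 (log2 fold change -4.05, adjusted p = 4.77e-06, limma). Plec, plectin, which ties Itgb4 to keratin, had a log2 fold change of -1.36, and the tetraspanin Cd151, which binds laminin receptors, of -0.75 (adjusted p = 2.73e-06 and 7.51e-06, limma). Krt14, a keratin of basal cells, was the exception, with 3707, 3833 and 3845 in T1 cells and 2, 7 and 0 reads in the T2 libraries (log2 fold change 10.36), and Dst was at 0.0022 (adjusted p = 0.99, limma). Of 9 basement membrane genes compared, Col4a6 was lower and Smoc1 higher in T1 cells past both filters, each with 1 read in all libraries of the other population. The ratio of T2 to T1 was 112 for Col4a6 (19.7 to 4457) and that of T1 to T2 was 81.8 for Smoc1 (14.3 to 3271, 95% counting intervals). At an adjusted p under 0.01, 2 of the 9 were higher and 4 lower in T1 cells (66.7%, against 49.5% of all genes tested). Col4a1 and Col4a2, the main chains of the network that laminin lies on, had log2 fold changes of -0.51 and -0.46 (adjusted p = 4.54e-04 and 0.00158, limma), in the range of Lama5, Lamb1 and Lamc1. Npnt was also lower in T1 cells (-1.34, adjusted p = 1.39e-04, limma). Agrn went the other way (1.10, adjusted p = 5.42e-06), and Hspg2 did not pass 0.01 (-0.20, adjusted p = 0.111, limma). Among 5 other laminin receptors, Bcam, which binds Lama5, was 9.28-fold higher in T2 cells, with 9.52, 4.65 and 22.4 and 101, 81.9 and 131 (adjusted p = 1.42e-04, limma).

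**Figure D5:**
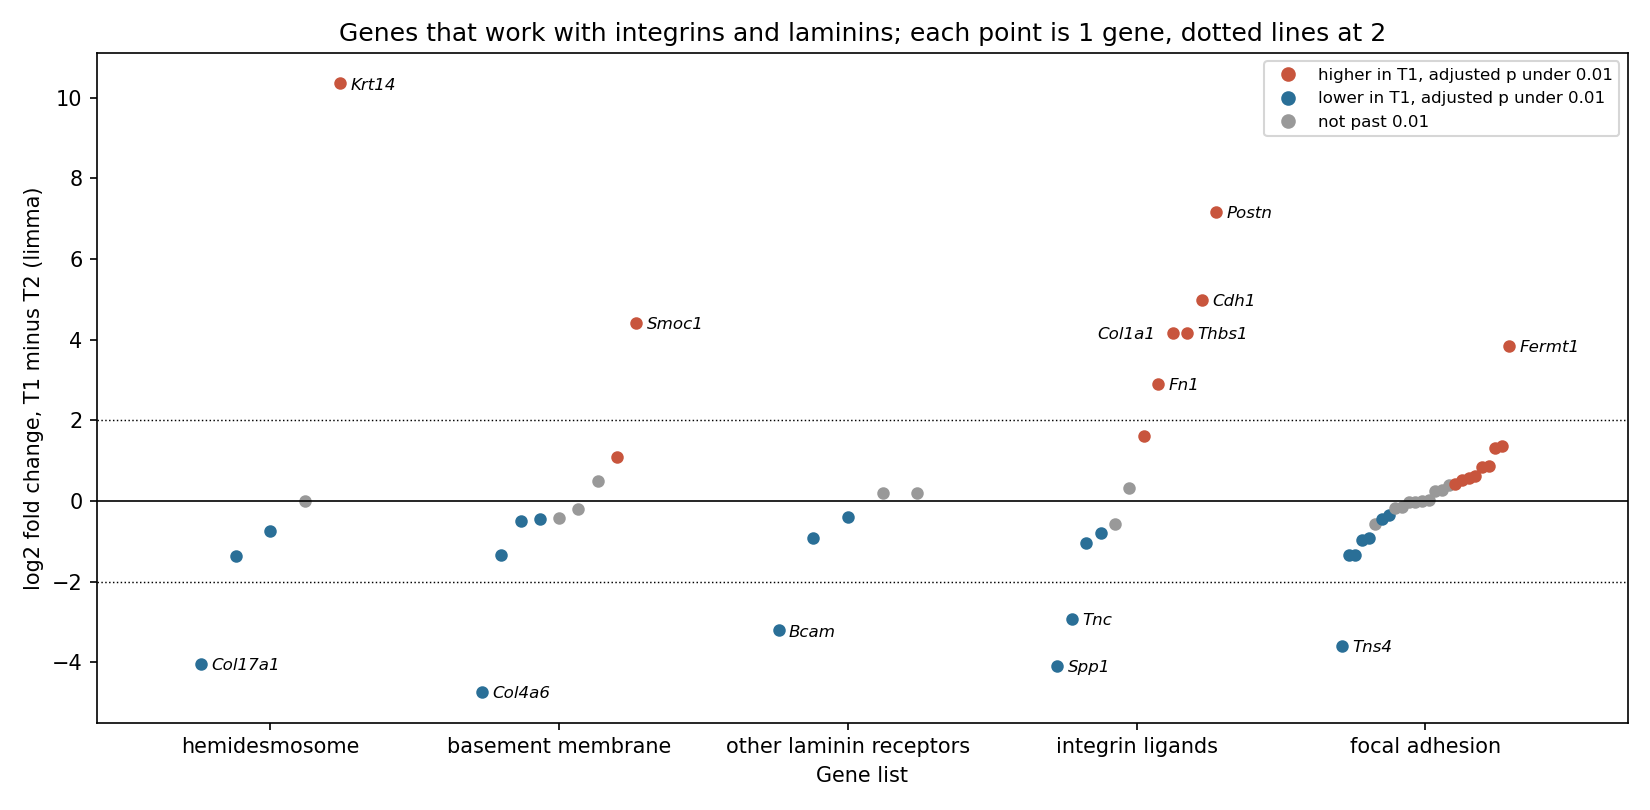
Log2 fold change of T1 minus T2 cells (limma) of the partner genes compared, with 1 point a gene in 5 lists. Red points are higher and blue points lower in T1 cells at an adjusted p under 0.01, grey points did not pass it, and genes beyond the dotted lines at 2 are named. Ligands spread widely to both sides, and most focal adhesion genes lie between the dotted lines. The height of the point of Postn, with 0 reads in T2 libraries, depends on the pseudocount.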

How the data were processed

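RNA sequencing values of 3 T1 and 3 T2 samples were used, grouped by their titles. Per the study's methods and the submitters' processing notes, Trimmomatic, TopHat2 on mm10 and HTSeq had been run, and the deposited signal is a gene's read count that the authors divided by 1 DESeq2 size factor per sample. Versions, annotation and strand setting are not given in the sources used here. With a tolerance of 0.01 reads, 100% of values were whole reads after division by the value of 1 read, so reads were recovered. Columns not used numbered 0. The 35 genes and the lists were chosen with earlier results of these data known. The 11514 genes whose mean over the samples was 10 or more were fitted with limma 3.58.1 (R 4.3.3) on the log2 of the normalized count plus 1, with a mean-variance trend and Benjamini-Hochberg adjustment over all of them. The pseudocount makes the changes of low genes look smaller. The thresholds, an adjusted p under 0.01 and a log2 fold change above 2, follow the study's methods. Alternatives included edgeR 4.0.16 and DESeq2 1.42.0 on the recovered reads, where edgeR called 486 genes higher and 488 lower in T1 cells past both filters, against 480 and 484 here. The main limma fit, edgeR and DESeq2 were tested on simulated data, with planted changes all above the filter on fold. The other settings were not. Intervals of read ratios are exact binomial, 95%, and cover counting error only. Coordinates and exon lengths (the union of exons) came from GENCODE M21, of the same build. Every one of the 35 genes is named, with partner genes past both filters (at most 4 per list and direction), and other genes were chosen after their values were seen. Fn1, outside that limit, was too. Protein sequences were not used here, and 1 further gene is not reported here. Figures were drawn with matplotlib 3.10.9.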

Additional observations from a re-analysis of the deposited data

How the results depend on the processing

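Of 358 fold changes of the 24 genes under other settings, 339 had the direction and call given above, and 6 genes lost or gained a call. The direction of Itga2, which was not called, turned under quantile normalization (0.01), edgeR with TMM (0.0016), DESeq2 (0.0034), without T1 replicate 1 and without T2 replicate 2 (0.22 and 0.16, in a range of -0.16 to 0.22 over the 6 fits that leave out a sample). Without the trend limma gave adjusted p-values above 0.01 for Itga5 (0.0172), Itgb3 (0.0155), Lama5 (0.0128) and Lamc1 (0.0106), and the cause was not tested. An adjusted p under 0.05 with a log2 fold change above 1 called 6 of the 24 genes higher and 7 lower, since the filters are wider. Of the 57 partner genes compared it called 12 higher and 11 lower. The share of all genes past these wider filters was not computed, so these counts cannot be read against it. With each sample left out in turn, 3 to 4 genes were higher and 4 lower past both filters, and 5 to 6 higher and 13 to 14 lower at an adjusted p under 0.01. Differences in share (T1 minus T2, percentage points) moved with the exon length used. Without length they were 14.7 for Itgb1 (against 10.3), -15.9 for Itgb4 (-10.2), -9.80 for Itga6 (-7.51), 1.39 for Itgav (0.654) and 15.9 for Lamb3 (20.9). With the longest transcript they were -10.7 for Itga6, 1.06 for Itgav and 18.1 for Lamb3. Same-numbered replicates of T1 and T2 had deviations correlated at 0.0575, 0.172 and 0.104, and 1 of the T2 samples correlated best with another number, and since not every pair was over 0.1 the numbers were not taken to pair the samples. With the replicate number as a block, 3 genes were higher and 4 lower past both filters, 7 higher and 14 lower at an adjusted p under 0.01 (Itgb2 was gained, adjusted p = 4.81e-04, limma), and 8 partner genes higher and 6 lower. Low reads limit Itgb6, Itga8, Itga2b and Itgae, whose mean was under 10 in one population.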
